A study of Mus musculus with 6 samples.

Results

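The Notch pathway of the vessel wall was read on whole-lung arrays through 10 genes. They comprised the receptors Notch1, Notch2, Notch3 and Notch4, the ligands Jag1, Jag2, Dll1 and Dll4, and the target genes Hes1 and Heyl. Every probe set whose single platform gene symbol is one of these was taken, which gave 21 of the 45101 probe sets on the array. The samples were 6 lungs, 1 Affymetrix Mouse Genome 430 2.0 array each, in 3 groups of 2 mice.

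Every mouse was a female of the FVB/N strain by the series description, although the label of control 1 leaves the sex unstated and speaks of mice in the plural. All of them, controls included, carried the SM22-rtTA transgene, a doxycycline-dependent transactivator under the promoter of the smooth muscle gene Tagln, and ate doxycycline for 9 weeks from the age of 4 weeks until death at 13 weeks. Controls had no other transgene. The remaining mice were heterozygous for SM22-rtTA and for TetO7-BMPR2-R899X, which doxycycline switches on in cells with the transactivator and which encodes a truncated BMPR2, a receptor of bone morphogenetic proteins. Among these, 2 mice ended with a right ventricular systolic pressure (RVSP) that was nearly normal and 2 with one that was substantially raised. The groups of mutant mice were thus formed by the pressure reached, and the pressures themselves are not analysed here. Mice are called control 1 and 2, normal RVSP 1 and 2, and high RVSP 1 and 2, in an order without meaning.

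Notch receptors are cell-surface proteins that are cut when a Jagged or Delta-like ligand on a neighbouring cell binds them. The freed intracellular part enters the nucleus, joins the DNA-binding protein RBPJ and switches on repressors of the Hes and Hey families. In blood vessels Notch1, Notch4 and Dll4 are known from endothelium and Notch3 from smooth muscle cells and pericytes, where Jag1 on endothelium is among its ligands, while Jag1 and Jag2 also occur in airway epithelium. Human NOTCH3 and HES family activity has been studied in arterial smooth muscle in pulmonary hypertension.

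Intensities are linear values as deposited, taken as scaled because their trimmed mean was the same on each array. Differences are of log2(intensity + 16), the first named group minus the second, and values after ± are standard errors from limma. No member probe set passed a Benjamini-Hochberg adjusted p of 0.05 over the 27022 probe sets tested, in any of the 4 comparisons. In each of them limma called 0 probe sets, a percentage of 0, so the absence of calls was common to the whole array. At an unadjusted limma p under 0.05, 1 of the 18 tested member probe sets was found in normal RVSP against control (4.34% of all probe sets). None, a count of 0, was found in high RVSP against control (5.65%), in high against normal RVSP (2.62%) or when all R899X mice were set against control (5.92%). The standard error of a difference between 2 groups lay between 0.17 and 0.55 over the members. The remaining 3 member probe sets, 1 of Notch2 and 2 of Notch4, fell below the brightness limit and were left out of the tests.

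The ratio of 3' to 5' intensity of beta-actin control probe sets, a measure of RNA or label length, was 1.89 and 1.45 in the controls, 1.64 and 1.31 at normal RVSP and 1.36 and 1.27 at high RVSP. Control 1 and normal RVSP 1 thus had the highest beta-actin ratios, and they were also the 2 arrays farthest from the rest. The same ratio for Gapdh control probe sets gave another order. It was 0.97 and 1.03 in the controls, 0.70 and 0.87 at normal RVSP, and 0.72 and 0.74 at high RVSP. Normal RVSP 1 had the lowest Gapdh ratio and control 2 the highest. Lung markers were bright on every array, with Sftpc, a surfactant protein of alveolar type 2 cells, between 26212 and 40876. The brightest Bmpr2 probe set lay between 15398 and 19768 and its groups overlapped, and whether it reads the transgene is not known, so the genotype labels were not tested. Tagln read 4115 and 4739 in the controls, 5622 and 4549 at normal RVSP, and 4330 and 4124 at high RVSP. All probe sets of a gene share its arrays, and none of them is a replicate of another.

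The array reads mature transcripts, and promoters are shown only for members picked by their values. These were Notch2, Notch4 and Dll4, whose brightest probe sets were lower in both high RVSP mice than in both controls. Jag2 was added as the member with the largest difference of a brightest probe set. Each window runs from 250 bases before to 50 bases after the annotated start, 5' to 3' on the gene's strand, from RefSeq on GRCm38.p6. The Jag2 window lies inside the gene span that RefSeq lists without a named build, so its start is not the 5' end of that span. Capitals mark an N box, CACNAG, or a class C site, spelled CACGCG. Both were searched on both strands, and Hes and Hey proteins are known to bind such letters. The Notch4 window held neither, and the class C site of Jag2 lay 18 bases after the annotated start.
Notch2 promoter, chr3:98013288-98013587, plus strand: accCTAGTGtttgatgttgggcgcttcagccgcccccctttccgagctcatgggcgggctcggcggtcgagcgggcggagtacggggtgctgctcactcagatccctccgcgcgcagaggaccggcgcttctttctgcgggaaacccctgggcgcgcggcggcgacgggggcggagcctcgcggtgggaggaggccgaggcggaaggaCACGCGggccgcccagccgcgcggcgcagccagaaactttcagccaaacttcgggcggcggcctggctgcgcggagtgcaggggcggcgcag
Notch4 promoter, chr17:34564045-34564344, plus strand: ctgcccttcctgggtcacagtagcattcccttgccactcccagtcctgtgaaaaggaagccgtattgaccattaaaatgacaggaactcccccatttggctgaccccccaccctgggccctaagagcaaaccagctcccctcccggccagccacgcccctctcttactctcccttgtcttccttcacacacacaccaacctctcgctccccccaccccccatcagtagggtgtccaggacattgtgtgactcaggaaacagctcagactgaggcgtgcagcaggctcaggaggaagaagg
Dll4 promoter, chr2:119325534-119325833, plus strand: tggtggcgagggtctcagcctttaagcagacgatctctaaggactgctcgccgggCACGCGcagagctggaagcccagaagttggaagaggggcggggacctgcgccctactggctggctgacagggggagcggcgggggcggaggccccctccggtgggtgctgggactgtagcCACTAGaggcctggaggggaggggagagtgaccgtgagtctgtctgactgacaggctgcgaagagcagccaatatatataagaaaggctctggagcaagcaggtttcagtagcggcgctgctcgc
Jag2 promoter, chr12:112929446-112929745, minus strand: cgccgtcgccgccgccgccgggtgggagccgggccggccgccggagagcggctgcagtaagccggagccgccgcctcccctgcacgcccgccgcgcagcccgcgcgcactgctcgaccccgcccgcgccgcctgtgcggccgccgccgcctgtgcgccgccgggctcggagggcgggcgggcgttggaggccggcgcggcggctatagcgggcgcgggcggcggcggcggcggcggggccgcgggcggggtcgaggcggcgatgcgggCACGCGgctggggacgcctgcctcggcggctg
RefSeq windows were matched for 8 of the 10 members, in 9 windows since Dll1 has 2. The class C letters were found in 5 of these 9 windows, from 5 of the 8 genes (Notch2, Jag1, Jag2, Dll1 and Dll4), and in 9.27% of all 32851 windows. These letters contain CG pairs, of which the Notch2 window held 41, the Jag2 window 63, the Dll4 window 17 and the Notch4 window 5, while the median of all windows was 7. The N box letters were found in 5 of the 9 windows, from 5 of the 8 genes (Notch1, Notch2, Notch3, Dll1 and Dll4), and in 42.5% of all windows. The RBPJ core TGGGAA was found in 0 of the 9 windows and in 25.6% of all windows, and the E box CACGTG in 0 and in 7.15%. The motifs did not overlap in the printed windows. A match is a description of letters and does not show binding.

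The brightest probe set of each of the 4 receptors had its lowest group mean at high RVSP, with differences between -0.38 and -0.08 from control and between -0.36 and -0.19 from normal RVSP, and 0 of them passed limma's test. Notch4, an endothelial receptor, read 1557 and 2511 in the controls, 2262 and 1695 at normal RVSP, and 1493 and 1548 at high RVSP. Both high RVSP mice were below all other mice, but control 1 at 1557 lay next to high RVSP 2. The difference was -0.38 ± 0.25 against control (adjusted p = 0.879 in limma, 95% interval -0.94 to 0.19) and -0.36 ± 0.25 against normal RVSP. Without control 1 the first of these was -0.72, and without control 2 it was -0.03, so its size rested on control 2. Whether fewer cells of a type or less RNA per cell underlies a lower level in whole lung cannot be told apart, for this and for every other member. Of 8 endothelial markers, 3 had a higher and 5 a lower mean at high RVSP than in the controls (median -0.04), and 4 a higher and 4 a lower mean than at normal RVSP (median 0.01). Their summed intensity was 35097 to 42363 in the controls, 38135 to 41201 at normal and 37532 to 41792 at high RVSP, and no marker was at 0. Their part in the values of Notch4 was not tested.

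Notch2, a receptor widely present in lung, read 1709 and 1421 in the controls, 1518 and 1444 at normal RVSP, and 1379 and 1224 at high RVSP. The high RVSP mice were the lowest of the 6, and controls overlapped with normal RVSP. Its difference was -0.26 ± 0.17 against control (adjusted p = 0.876 in limma) and -0.19 ± 0.17 against normal RVSP. Notch1, an endothelial and epithelial receptor, read 3955 and 3336, then 3969 and 2674, then 3437 and 2332 in the same order of groups. Each group held mice that differed widely, and the groups overlapped. The second probe set of Notch1 went the other way, from 436 and 974 in the controls to 713 and 752 at normal and 843 and 695 at high RVSP. The 2 probe sets of Notch1 therefore gave -0.36 ± 0.25 and 0.22 ± 0.33 for high RVSP against control. The log2 gap between them was 3.13 in control 1 and 2.45 in normal RVSP 1, and from 1.72 to 2.01 on the other 4 arrays.

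Notch3, the receptor of vascular smooth muscle and pericytes, had its highest values outside the high RVSP group. Its brightest probe set, whose suffix marks probes that may match more than 1 transcript, read 2269 and 2605 in the controls, 3208 and 2351 at normal RVSP, and 2308 and 2299 at high RVSP. The second probe set read 322 and 669, then 659 and 439, then 410.3 and 346. Both probe sets were higher in both normal RVSP mice than in both high RVSP mice, and in both the controls spread across the other groups. High against normal RVSP gave -0.25 ± 0.18 and -0.50 ± 0.35 (limma adjusted p = 0.9996 for both). Without normal RVSP 1 these were -0.03 and -0.21, so 1 mouse carried much of the difference.

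**Figure D1:**
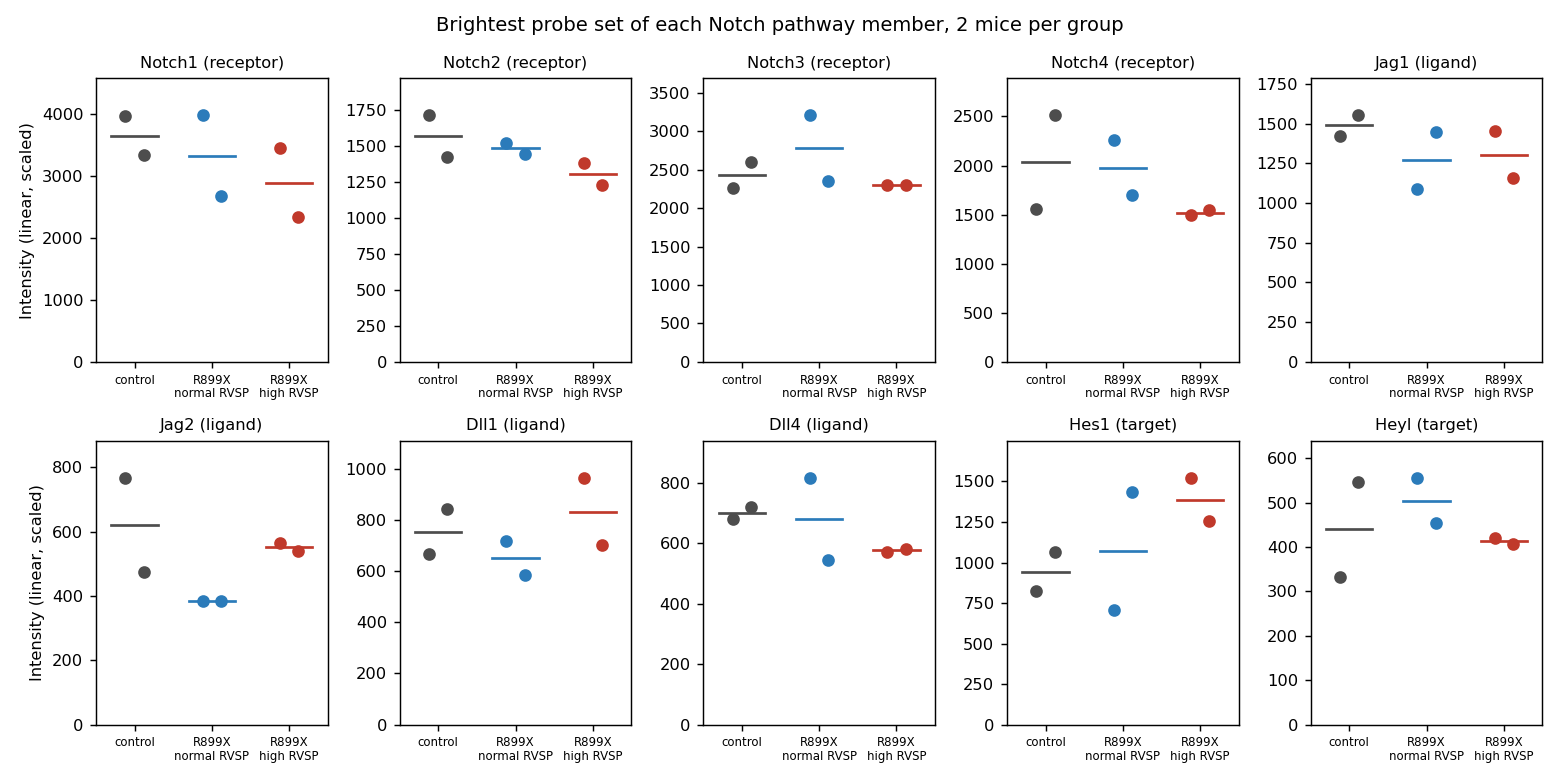
Linear scaled intensity of the brightest probe set of each of the 10 genes, with a point per mouse and a bar at the mean of the 2 mice of a group, on axes that start at 0. Both high RVSP points of Notch2, Notch4 and Dll4 lie below both control points, those of Hes1 above, and most other groups overlap.

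Among the brightest probe sets of the ligands, the largest difference belonged to that of Jag2, a Jagged ligand known from airway epithelium and endothelium. Its brighter probe set read 767 and 476 in the controls, 384 and 385 at normal RVSP, and 564 and 539.6 at high RVSP. The normal RVSP mice were nearly identical and lay below all other mice. The difference was -0.63 ± 0.24 for normal RVSP against control (limma adjusted p = 0.987), and 0.50 ± 0.24 for high against normal RVSP (limma adjusted p = 0.9996). Without control 1 the first was -0.30. The other Jag2 probe set did not share the pattern, with 344 and 599.7 in the controls, 405 and 469 at normal RVSP, and 476 and 356 at high RVSP. Its difference for normal RVSP against control was -0.06 ± 0.29.

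Jag1, a Jagged ligand of endothelium and smooth muscle, was read by 3 probe sets that differed among themselves. The brightest, whose groups overlapped, read 1424 and 1551 in the controls, 1091 and 1448 at normal RVSP, and 1451 and 1157 at high RVSP. The second read 92.3 and 208 in the controls, 57.7 and 229 at normal RVSP, and 237 and 219 at high RVSP, and the dimmest 73.5 and 105, then 64.8 and 106, then 113 and 109. In these dimmer ones the lowest 2 arrays were control 1 and normal RVSP 1, the arrays with the highest beta-actin ratios, and the other 4 lay close together. For the second probe set high RVSP differed by 0.65 ± 0.55 from control and 0.86 ± 0.55 from normal RVSP, against -0.20 ± 0.20 and 0.04 ± 0.20 for the brightest. When the beta-actin ratio entered the fit the first of these was -0.56, and without normal RVSP 1 the second was -0.0046, so the sign of each depended on the setting. The ratio was lower in both high RVSP mice than in both controls. Its covariate therefore cannot be separated from the group, and that fit does not decide the direction.

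**Figure D2:**
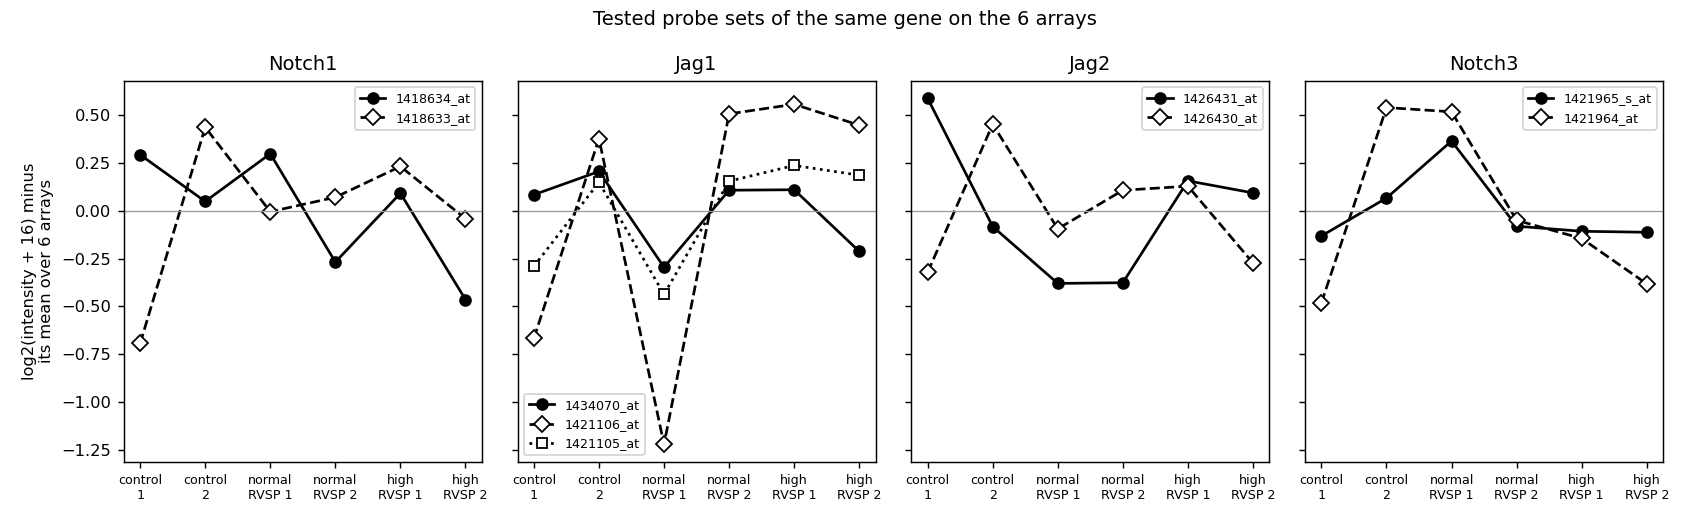
Deviation of log2(intensity + 16) from its mean over the 6 arrays, for the tested probe sets of Notch1, Jag1, Jag2 and Notch3, with lines that only join points of 1 probe set. All 3 Jag1 probe sets are lowest in normal RVSP 1, and the dimmer 2 are also low in control 1, with ranges of 1.78 and 0.67 against 0.50 for the brightest, and the probe sets of Notch1 and of Jag2 differ most in control 1.

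Dll4, a Delta-like ligand of arterial endothelium and of sprouting vessels, was the ligand whose probe sets matched best. The brighter read 683 and 720.45 in the controls, 816 and 544 at normal RVSP, and 572 and 583 at high RVSP, and the other 577 and 512, then 532 and 489.8, then 418 and 439.7. In both, the high RVSP mice were below both controls, and in the second they were also below both normal RVSP mice. High RVSP against control gave -0.27 ± 0.22 and -0.33 ± 0.18 (limma adjusted p = 0.895 and 0.865). Under every alternative but the beta-actin covariate, where it was -0.21, the second stayed between -0.42 and -0.25. Dll1, a Delta-like ligand with roles in several epithelia and in arteries, read 668 and 842 in the controls, 718 and 584 at normal RVSP, and 964 and 702 at high RVSP. The groups overlapped throughout, and its differences were between -0.21 ± 0.22 and 0.34 ± 0.22.

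The target genes did not move alike. Hes1, a repressor that Notch induces and that other signals also induce, had a range of 1.09 on the log2 scale, the widest among the brightest probe sets of the 10 genes. It read 821 and 1065 in the controls, 706 and 1433 at normal RVSP, and 1521 and 1257 at high RVSP. Both high RVSP mice were above both controls, whereas the normal RVSP mice were the lowest and the second highest of all 6. The difference was 0.56 ± 0.31 for high RVSP against control (limma adjusted p = 0.872, 95% interval -0.17 to 1.28) and 0.45 ± 0.31 against normal RVSP. Control 1 and normal RVSP 1, with the highest beta-actin ratios, were the lowest arrays of Hes1. The difference from control was -0.0033 with that ratio as a covariate and 0.37 with both arrays left out. As for Jag1, the covariate cannot be separated from the group in this comparison. Without normal RVSP 1 the difference from normal RVSP was -0.05.

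Of the named genes on the array, Ier2, Zcchc14 and Fos had the profiles most like that of Hes1, with root mean square log2 gaps of 0.06, 0.07 and 0.07 over the 6 arrays after centring, against a median of 0.45 over all probe sets tested. Ier2 and Fos are immediate early genes, induced within minutes by growth factors and by stress of cells. Fos read 5218 and 6615 in the controls, 4732 and 10319 at normal RVSP, and 10272 and 8075 at high RVSP. As with Hes1, control 1 and normal RVSP 1 were the lowest. Such closeness is picked from many probe sets on 6 arrays and is a description of them.

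**Figure D3:**
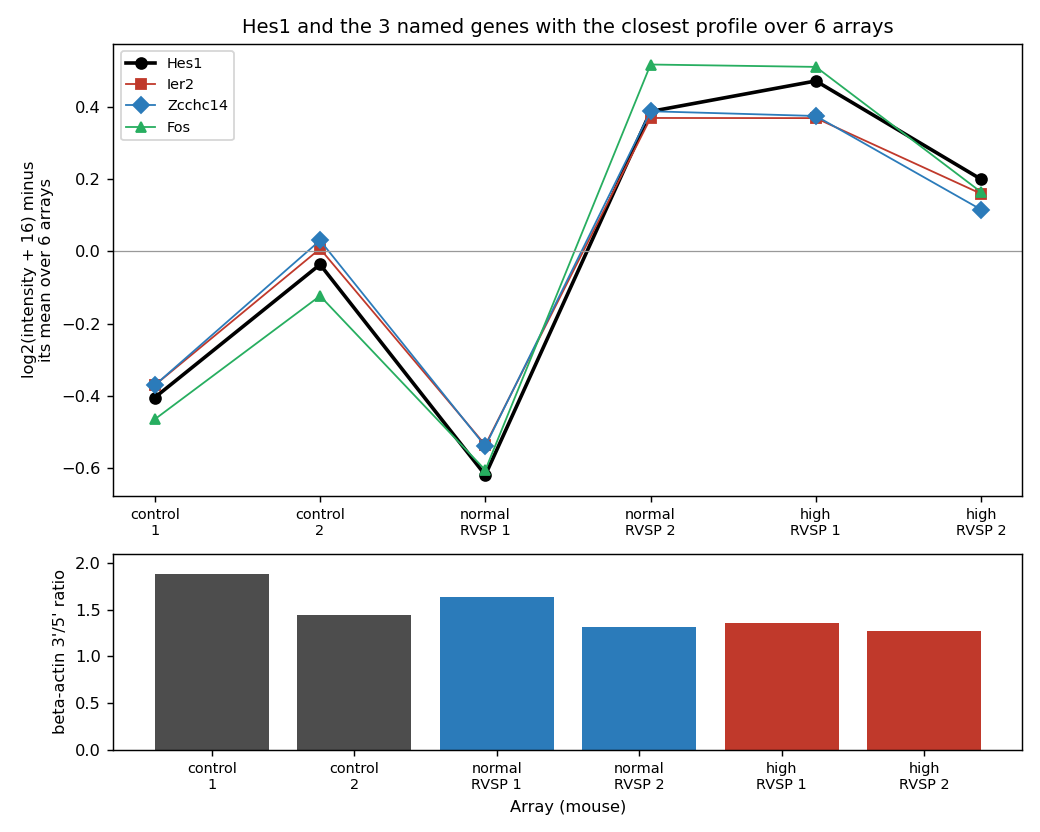
Above, deviation of log2(intensity + 16) from its mean over the 6 arrays for Hes1 and the 3 named genes closest to it, with lines that only join points of 1 gene. Below, the beta-actin 3'/5' ratio of each array as bars from 0, highest at 1.89 in control 1 and 1.64 in normal RVSP 1, where all 4 genes are lowest.

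Heyl, a Hey family repressor known as a Notch3 target of smooth muscle cells, followed Notch3 rather than Hes1 in the order of group means of its brighter probe sets. Its brightest probe set read 334 and 547 in the controls, 555 and 454 at normal RVSP, and 419 and 408 at high RVSP. The second read 216 and 406, then 366 and 305, then 283 and 259, and the log2 gap between these probe sets stayed between 0.42 and 0.62 on all arrays. In both, the high RVSP mice were below both normal RVSP mice and lay between the controls. The controls were the lowest and highest mice in the second probe set, while normal RVSP 1 was the highest in the first. High against normal RVSP gave -0.27 ± 0.26 and -0.29 ± 0.30 (limma adjusted p = 0.9996 for both). The dimmest, at 124 to 183 on the 6 arrays, gave 0.0045 ± 0.27. Its group means were 156 in the controls, 141 at normal RVSP and 143 at high RVSP, so it did not share the order of Notch3.

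Like those of Notch3 and of the brighter Heyl probe sets, levels of smooth muscle and pericyte markers had their highest group at normal RVSP. Of 9 markers, 9 had a lower mean at high RVSP than at normal RVSP, 7 of them with no overlap (15.5% of all probe sets), with a median difference of -0.28, and 0 passed limma's test. Against control, 9 of 9 had a higher mean at normal RVSP, with a median of 0.26. For high RVSP against control 5 of the 9 differences were positive and 4 negative (median 0.016), whereas those of the brightest Notch3 and Heyl probe sets were negative. Their summed intensity was 20362 to 21932 in the controls, 24397 to 27031 at normal RVSP and 21444 to 22594 at high RVSP, and no marker was at 0. Their mean deviation was -0.30 in control 1, where Notch3 and the brighter Heyl probe sets were also lowest, and 0.22 in normal RVSP 1. The endothelial markers were likewise lowest in control 1, at -0.26, and highest in normal RVSP 1, at 0.13. The part of either marker list in the values of Notch3 and Heyl was not tested. Markers of ciliated airway cells also had their highest group at normal RVSP, with 6 of 6 positive against control (median 0.47) and 6 of 6 negative for high against normal RVSP (median -0.23). Their summed intensity was 1713 to 3223 in the controls, 3414 to 3432 at normal RVSP and 2539 to 3217 at high RVSP. Their mean deviation was -0.66 in control 1 and 0.21 in normal RVSP 1, and their part was not tested. Cardiac muscle markers, which a lung sample with attached heart or vein tissue can hold, had a summed intensity of 10042 to 20457 at high RVSP. This lay below 21555 to 29902 at normal RVSP and 21879 to 24640 in the controls. All 6 tested were lower for high against normal RVSP (median -0.97), and 0 passed limma's adjusted threshold. High RVSP 2 held the lowest values, with a mean deviation of -1.09 against 0.0017 in high RVSP 1. The part of these markers was likewise not tested.

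**Figure D4:**
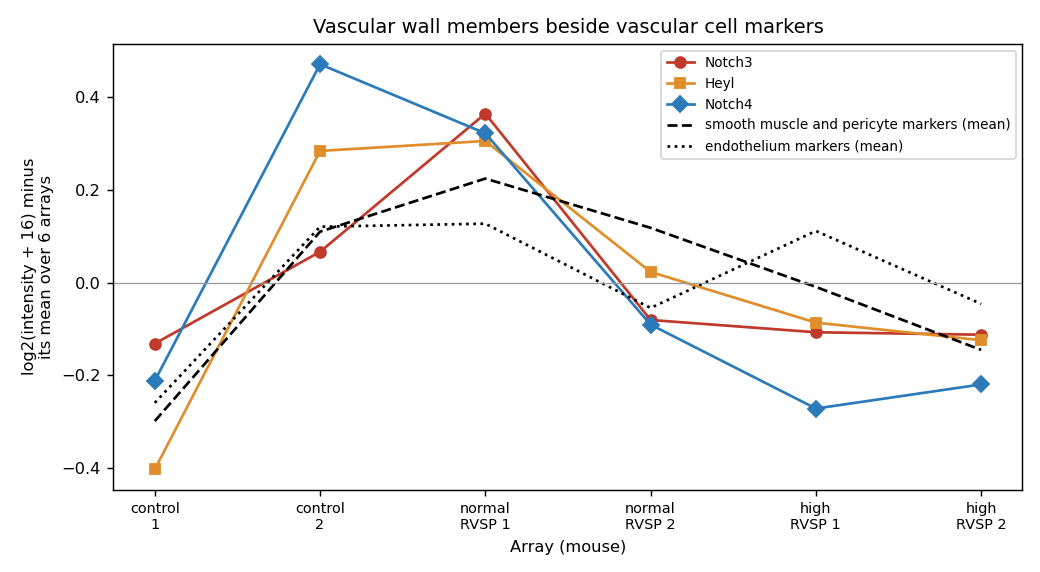
Deviation of log2(intensity + 16) from its mean over the 6 arrays for Notch3, Heyl and Notch4, beside the mean deviation of 9 smooth muscle and pericyte markers (dashed) and 8 endothelial markers (dotted), with lines that only join points. Notch3, Heyl and the smooth muscle markers are lowest in control 1 and highest or near it in normal RVSP 1. The endothelial markers share this, at -0.26 in control 1 and 0.13 in normal RVSP 1.

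Over the 18 tested member probe sets, 6 had a positive difference for normal RVSP against control (49.9% of all probe sets), 5 for high RVSP against control (49.3%), 8 for high against normal RVSP (51.7%) and 7 for R899X mice of both groups against control (49.6%). Arrays separated most often between high and normal RVSP. There 7 of 18 were lower in both high RVSP mice and 2 were higher, against 15.5% and 16.7% of all probe sets, or 32.2% in either direction. Those 7 came from 5 genes, Notch2, Notch3, Notch4, Dll4 and Heyl, with 2 each from Notch3 and Heyl, and the 2 that were higher came from Jag1 and Jag2. For high RVSP against control 4 of 18 were lower (Notch2, Notch4 and both Dll4 probe sets) and 3 higher (Hes1 and the dimmer Jag1 probe sets), against 18.2% and 19.1%, or 37.3% in either direction. For normal RVSP against control 1 was lower, Jag2, and 0 higher, against 15.1% and 14.4%, or 29.5% in either direction. For all R899X against control 0 separated in either direction, against 7.71% lower and 7.52% higher, or 15.2%. Separation of 2 mice from 2 is a description, and it was common on the whole array.

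By gene, with the brightest probe set of each, the median difference of the 10 members was -0.07 for normal RVSP against control, -0.16 for high RVSP against control, -0.19 for high against normal RVSP and -0.17 for R899X mice together, beside -0.00086, -0.0042, 0.0081 and -0.0020 over all probe sets tested. The group mean was lowest at high RVSP in 6 of the 10 genes (the receptors, Dll4 and Heyl), at normal RVSP in 3 (Jag1, Jag2 and Dll1) and in the controls in 1 (Hes1). No neighbouring pair of group means in these orders differed past the threshold of the limma fit. Without normal RVSP 1 the median for high against normal RVSP was -0.040, and without high RVSP 2 it was -0.012.

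**Figure D5:**
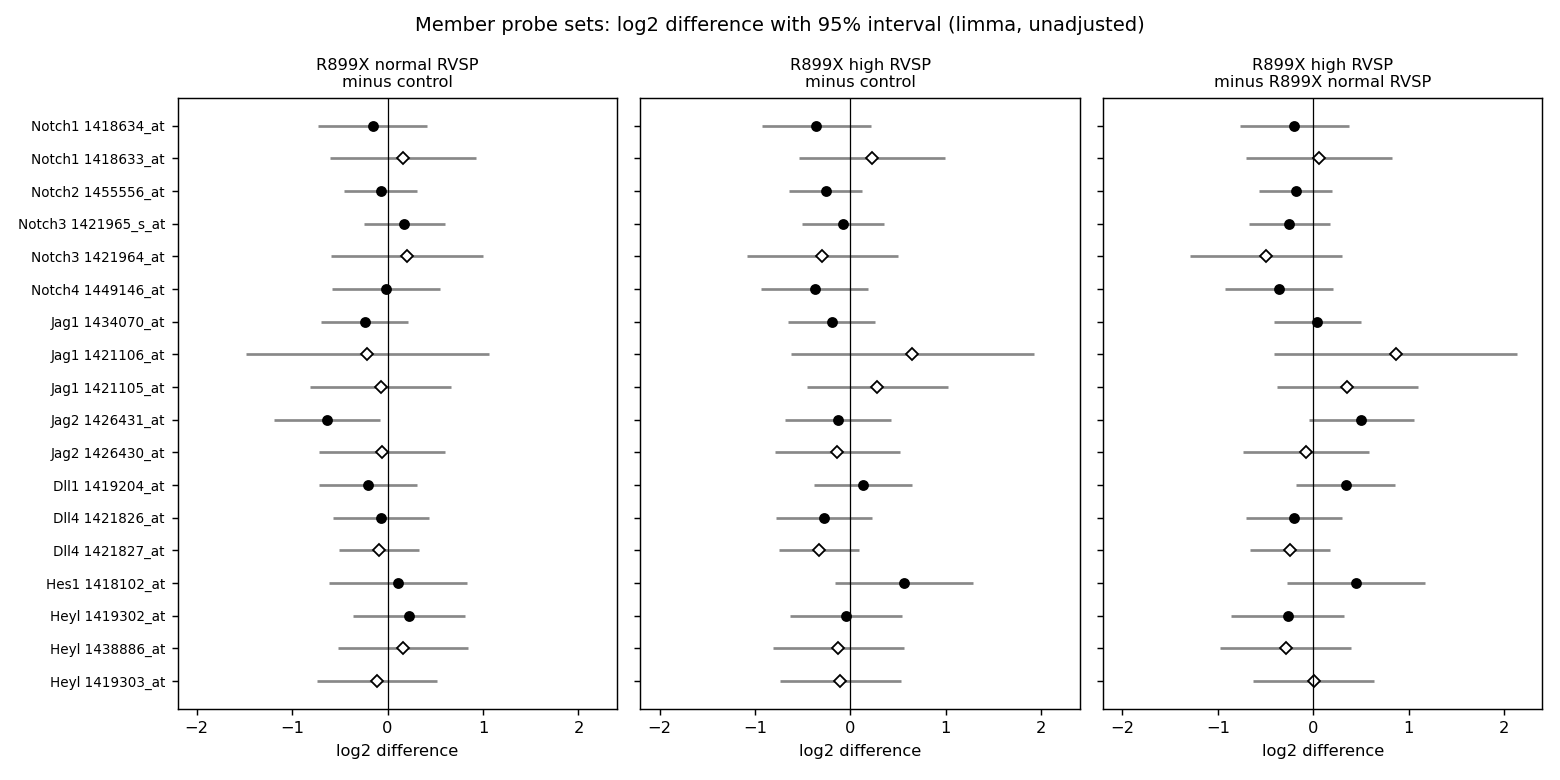
Log2 difference (points) and 95% interval (lines, limma, not adjusted) of the 18 tested member probe sets in 3 comparisons, filled circles for the brightest probe set of a gene and open diamonds for the others. Except for Jag2 in normal RVSP minus control, with an interval from -1.19 to -0.08, the intervals include 0, and those of a dimmer Jag1 probe set are the widest.

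The set of all R899X mice against control added no member past the threshold. Jag2 had the largest difference at -0.38 ± 0.21 (adjusted p = 0.844 in limma), followed by Hes1 at 0.33 ± 0.27 (adjusted p = 0.883) and Notch1 at -0.26 ± 0.22 (adjusted p = 0.885). The direction of Hes1 was turned by the beta-actin covariate, with a difference of -0.09. That ratio was itself lower in most R899X mice than in both controls, so the covariate does not decide the direction.

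The receptor probe sets left out as dim read between 5.60 and 84.6. The dim Notch2 probe set read 59.5 and 77.1 in the controls, 10.2 and 16.8 at normal RVSP, and 72.1 and 67.2 at high RVSP. A dim Notch4 probe set read 52.7 and 65.3, then 5.60 and 28.0, then 63.6 and 42.5, and the other 75.6 and 71.4, then 43.3 and 66.9, then 74.9 and 84.6. In all 3 both normal RVSP mice lay below the other 4 mice, as they did in 8.07% of the 18015 dim probe sets. These 2 arrays also had the lowest median intensities, 127.7 and 132.3 against 134.1 to 140.8 on the others, and the part of this in the dim values was not tested. With no filter, over 45037 probe sets, the Notch2 probe set differed by -1.51 ± 0.35 for normal RVSP against control (limma adjusted p = 0.972) and by 1.54 ± 0.35 for high against normal RVSP (limma adjusted p = 0.9997). The brightest probe sets of the same genes differed by -0.07 ± 0.17 and -0.01 ± 0.25 between normal RVSP and control.

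The other genes of the pathway gave no call either. Of 44 listed genes 40 were on the array with 1 gene symbol and 33 were tested, and 0 passed limma's adjusted threshold in either direction in any comparison. For normal RVSP against control 19 of 33 had a positive and 14 a negative difference (median 0.01), for high RVSP against control 14 and 19 (median -0.08), for high against normal RVSP 11 and 22 (median -0.08), and for all R899X against control 14 and 19 (median -0.03). These counts use the brightest probe set of each gene. Among those, Psen2, a catalytic subunit of the gamma-secretase that cuts Notch, had the smallest p at normal RVSP against control. It read 631 and 608 in the controls, 997 and 758 at normal RVSP, and 619 and 724 at high RVSP. The normal RVSP mice were the highest of the 6, with a difference of 0.48 ± 0.20 from control (limma adjusted p = 0.987). A dimmer Itch probe set had a smaller p there, at -0.66 ± 0.25 (limma adjusted p = 0.987), while the brightest Itch probe set gave 0.04 ± 0.18.

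Aph1a, another gamma-secretase subunit, had a difference of -0.45 ± 0.23 in that comparison, while Fbxw7, which marks the cut Notch fragment for degradation, had 0.31 ± 0.18. A second Fbxw7 probe set went the other way, at -0.53 ± 0.24 (limma adjusted p = 0.987), with both normal RVSP mice below both controls. Neurl1a, a ubiquitin ligase that acts on Notch ligands, read 163 and 161 in the controls, 141 and 111 at normal RVSP, and 98.8 and 126 at high RVSP. Both controls were above all 4 R899X mice, a separation found in 7.71% of all probe sets. The difference was -0.48 ± 0.26 for high RVSP against control (limma adjusted p = 0.866) and -0.41 ± 0.23 for all R899X against control (limma adjusted p = 0.846). Lfng, a glycosyltransferase that tunes which ligand a receptor responds to, had -0.44 ± 0.30 for high RVSP against control, with 509 and 1043 in the controls and 526 and 540.3 at high RVSP. Here control 2 alone stood above the others. Dtx2, a Deltex protein that binds Notch, had -0.34 ± 0.23, and Hey2, an arterial Notch target, 0.28 ± 0.24 in the same comparison. For high against normal RVSP the smallest p-values of brightest probe sets after that of Psen2 (-0.37 ± 0.20) belonged to Pofut1, Fbxw7 and Rfng, with differences between -0.23 and -0.20. The second Fbxw7 probe set again had the opposite sign, at 0.23 ± 0.24. Dimmer probe sets of Itch and Adam10 had smaller p-values than Psen2 there, at 0.75 ± 0.25 and 0.55 ± 0.22. The brightest probe set of Rbpj, the DNA-binding partner of cut Notch, was between 1748 and 2114 on all arrays. Some dimmer probe sets differed more for high RVSP against control. Those of Adam10 that were tested gave 1.06 ± 0.22 and 0.73 ± 0.23 (limma adjusted p = 0.801 and 0.857), while its brightest gave 0.06 ± 0.15. In both dimmer ones all 4 R899X mice were above both controls (7.52% of all probe sets). A dimmer Adam17 probe set gave 0.75 ± 0.24 and its brightest 0.07 ± 0.19.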

How the data were processed

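Per the labels' protocols, mice were given heparin and then killed, saline was run through the right lung, and total RNA was purified on columns and biotin-labelled after the array maker's manual. The authors deposited 1 linear intensity per probe set and array. The algorithm and software behind these deposited intensities are not given in the sources used here. Their mean on each array, after trimming 2% at each end, was 500.0.

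Values were turned into log2(intensity + 16), which understates differences of dim probe sets. Array medians spanned 0.126, under the limit of 0.2, so nothing further was normalized. The 64 control probe sets and the 18015 dimmest, 40% by average log2 value (intensity below about 74.9), were left out. With R 4.3.3 and limma 3.58.1, group means were fitted to all 6 arrays (3 residual and 5.06 prior degrees of freedom) with an intensity trend, and two-sided p-values were adjusted (Benjamini-Hochberg) over 27022 probe sets. Intervals at 95% are unadjusted. The number of arrays limits the precision. The fit was tested on simulated data.

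Gene names come from the platform annotation, which gave 1 symbol for 34958 probe sets. The brightest probe set stands for a gene. All members are named. Of the other pathway genes the 4 with the smallest p of a brightest probe set per comparison were eligible for naming. Rbpj, and the dimmer probe sets of Adam10, Adam17 and Itch, were added after their values were seen. The 3 genes most like a member were taken for the member whose brightest probe set had the widest range. The members and lists were chosen with earlier results of these data known. No gene coordinates are given beyond the promoter windows, since the table names no build. Alternatives were other normalization, pseudocounts (1 and 64), filters, no trend, the compared arrays only, a beta-actin covariate and left-out arrays.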

Additional observations from a re-analysis of the deposited data

Results flagged for a closer look

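Over the 4 R899X mice, which pool both pressure groups, 1 array stood far from the other 3 in 4 of the 21 member probe sets. It was normal RVSP 1 each time. The bright Notch3 probe set read 3208 there (3210 to 3 digits), with the next mouse at 2351. The brighter Dll4 probe set read 816, with the next at 583. The dimmer Jag1 probe sets read 57.7 and 64.8, with the next at 219 and 106. The gap of each exceeded the 95% critical value for 4 samples, which chance exceeds in about 1 in 20 groups. The share of all probe sets with such a gap is not given here, so the count is not a result about the members. Over all tested probe sets normal RVSP 1 also lay farther from the other arrays, at a mean log2 distance of 0.49. The other R899X arrays lay at 0.40 to 0.42. Normal RVSP 1 also had the highest beta-actin 3'/5' ratio of these 4 arrays, 1.64, and its part in these values was not tested.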

How the results depend on the processing

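Of 240 recomputed counts and medians, 219 stayed on the same side of the threshold or within the spread between mice of a group (0.138 on the log2 scale for the members' median) and 21 did not. With control 1 and normal RVSP 1 both left out, which leaves a single mouse in 2 groups whose spread is then borrowed from the high RVSP mice, 131, 313, 56 and 228 probe sets passed for normal RVSP against control, high RVSP against control, high against normal RVSP and R899X mice together against control. Among them was 1 member, Notch4 in high RVSP against control, at -0.72 (limma adjusted p = 0.0290, with 0.777 the lowest of its other alternatives), and 1 other pathway gene there and 1 for R899X mice together. The members' median was then -0.28 for normal RVSP against control and -0.040 for high against normal RVSP. With only the arrays compared, 1 probe set passed for high RVSP against control.

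Leaving out 1 array at a time gave 0 to 4, 0 to 2, 0 to 43 and 0 to 6 probe sets past the threshold in the same order, with 0 members and 0 other pathway genes among them. The lone mouse of a group is then assumed to vary like the others. The members' median ranged from -0.32 to -0.012 for high against normal RVSP and from -0.17 to -0.0048 for R899X mice together. No single member difference passed, so none could lose a call. The sign of such a difference turned in 23 of 72 when the beta-actin ratio entered the fit, 20 of 72 without both arrays, 16 without control 2, 15 without control 1, 12 and 9 without normal RVSP 1 and 2, 5 and 7 without high RVSP 1 and 2, and 2 after quantile normalization; it turned in 0 with another pseudocount, filter or variance model. The causes were not tested. The beta-actin ratio was lower in both high RVSP mice than in both controls, so its fit is confounded with that comparison. No paired analysis was possible because the labels give no replicate numbers that link mice across groups.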

Other observations

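Control 1 and normal RVSP 1 were the lowest 2 arrays for 3 of the 18 tested member probe sets (Hes1 and the dimmer Jag1 pair) and the highest 2 for 3 others (the brighter Notch1, Notch2 and the second of Dll4). Over all 27022 probe sets they were the lowest 2 for 3240 and the highest 2 for 3449. A Bmpr2 probe set was lowest in the same 2 arrays as the dimmer Jag1 probe sets, with 436 and 2047 in the controls, 657 and 1987 at normal RVSP, and 1928 and 2170 at high RVSP, while the brightest Bmpr2 probe set stayed between 15398 and 19768. Gja5, a connexin of arterial endothelium that was singled out after its values were seen, was too dim to be tested and read 4.30 and 19.7 in the controls, 72.6 and 82.4 at normal RVSP, and 85.2 and 69.5 at high RVSP. The share of dim probe sets that separate R899X from control mice in this way is not given here. Gja5 is 1 of 6 listed arterial endothelial markers, among them Hey2, which was also counted with the other Notch pathway genes. Of the 5 that were tested, 3 were higher and 2 lower for high RVSP against control (median 0.18). For all R899X against control 4 were higher and 1 lower (median 0.16), and 0 passed limma's adjusted threshold.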
